A study of Glycine max with 12 samples.

Results

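The genes described are 8 soybean (Glycine max) loci of the raffinose pathway, picked by locus ID out of the 56044 gene IDs in the tables. They are the raffinose synthases RS2 (Glyma.06G179200) and RS3 (Glyma.05G003900), a stachyose synthase (Glyma.19G217700), 4 galactinol synthases (Glyma.03G222000, Glyma.19G219100, Glyma.20G094500 and Glyma.10G145300) and the myo-inositol phosphate synthase MIPS1 (Glyma.11G238800). The files hold IDs only, so these roles come from the rule that defined the set. All 8 IDs had a row in every library.

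Raffinose and stachyose are sugars that plants build by adding galactose units to sucrose. MIPS makes the inositol phosphate from which free inositol is formed, galactinol synthase joins galactose to inositol, and raffinose synthase passes that galactose from galactinol to sucrose. Stachyose synthase then adds a further galactose to raffinose. These sugars build up as legume seeds mature and dry, they are made in leaves under drought and cold, and people and pigs digest them poorly, which makes RS2 and RS3 known targets for soybean meal with less of them.

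RNA was sequenced from field-grown soybean of the cultivar Thorne (wild type) and of plants with edits in the gene model under a major seed protein locus. These were a Gm20 single mutant, called Gm20 from here on, and a Gm20/Gm10 double mutant, called Gm20/Gm10, in which the paralog was edited as well. Each of the 3 genotypes had 2 libraries labelled R5 and 2 labelled V5, all labelled seed, with the seeds of 3 to 5 plants collected for RNA. On the usual scale of soybean growth, R5 is when seeds begin to fill and V5 is a leaf stage before flowering. The labels do not give the sequence of an edit, the number of edited events behind a line or whether the libraries of a group came from separate plots, and the p-values therefore cover only the spread from library to library, which may be technical.

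The marker values ran against the tissue and stage labels. From a list fixed by ID from background knowledge (4 glycinins, 2 beta-conglycinins, a Kunitz trypsin inhibitor, an oleosin and the seed lectin), the 9 seed genes summed to 0.182 to 0.375 CPM in the 6 R5 libraries, with at most 9 counts for any of them, and 4 of them had 0 counts in all 6. They summed to 6672 to 241900 CPM in the V5 libraries. The 4 leaf and vegetative genes (2 Rubisco small subunits and 2 vegetative storage proteins) summed to 17700 to 35230 CPM at R5 and to 115 to 366 CPM at V5. R5 and V5 are therefore used only as names of the library sets, and which tissue or age each set holds was not tested. Depth ran from 26966329 to 34626177 counts in the R5 libraries and from 20410270 to 21066989 in those of V5, so stage, marker content and depth cannot be told apart. In such bulk RNA, fewer cells of a type and less RNA per cell cannot be told apart either. The pair known for this locus, Glyma.20G085100 and Glyma.10G134400, had at most 6 counts in any R5 library and 10 to 67 at V5, too few to check the genotype labels, and an edit need not change the count. Among the V5 libraries Gm20 replicate 2 stood apart, with 6672 CPM of seed genes against 125800 to 241900 in the others. At R5 the same-numbered libraries of both mutants deviated from their group means in opposite directions (r = -0.674 across genes), so that Gm20/Gm10 replicate 1 went with Gm20 replicate 2.

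RS2 was the member with the clearest difference between the library sets. In CPM (the count scaled to a common library total) it was at 0.616 and 0.467 in Thorne, 2.06 and 0.556 in Gm20/Gm10 and 1.10 and 2.09 in Gm20 at R5 (15 to 69 counts). The V5 libraries had 22.4 and 22.3 CPM in Thorne, 20.7 and 21.9 CPM in Gm20/Gm10 and 25.7 and 57.4 CPM in Gm20 (429 to 1210 counts). Every V5 library thus lay above every R5 library. In plain CPM 5 of the 6 V5 libraries, from each genotype, lay within 20.7 to 25.7. That closeness depends on the scaling, since the TMM factors of these 5, which correct for RNA composition, ran from 0.778 to 1.05. The log2 fold change, R5 against V5, was -6.16 (SE 0.70) in Thorne, which is 71.6-fold lower at R5, -4.35 (SE 0.64) in Gm20/Gm10 and -4.90 (SE 0.65) in Gm20. With edgeR's quasi-likelihood test the adjusted p was 0.000563, 0.00156 and 0.000992, and RS2 stayed past the threshold of 0.05 under each of the 14, 14 and 12 alternative fits of these comparisons. The size moved more than the call. With library totals alone the Thorne value was -5.36, and without the similar R5 libraries Gm20/Gm10 was at -5.75 and Gm20 at -5.58. Without Gm20/Gm10 R5 replicate 2 that genotype was at -3.67.

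RS3, which carries out the same step, showed the opposite order. At R5 it was at 25.9 and 25 CPM in Thorne, 68.3 and 32.3 CPM in Gm20/Gm10 and 82.8 and 70.4 CPM in Gm20. V5 values were 7.35 and 8.97 CPM in Thorne, 4.68 and 12.8 CPM in Gm20/Gm10 and 8.42 and 1.71 CPM in Gm20. All 6 R5 libraries lay above all 6 V5 libraries, but the edgeR test was passed in Gm20 and not in the other genotypes. In Gm20 the log2 fold change was 3.46 (SE 0.84, adjusted p 0.0123). It was 2.18 (SE 0.80) in Gm20/Gm10 and 0.82 (SE 0.77) in Thorne, with edgeR adjusted p of 0.0599 and 0.428. The Gm20 call was lost without the similar R5 libraries (3.44, edgeR adjusted p 0.0584), in limma (4.24, adjusted p 0.204) and in a fit of the 4 Gm20 libraries alone (edgeR adjusted p 0.105), and it held without Gm20 V5 replicate 2 (2.64, edgeR adjusted p 0.0146). RS3 was also called in Gm20/Gm10 under 6 of 14 alternatives, among them DESeq2 (adjusted p 0.0179) and without Gm20 V5 replicate 2 (edgeR adjusted p 0.00709), and in Thorne under 1 of 14 (its 4 libraries alone, edgeR adjusted p 0.0163).

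Because both raffinose synthases were counted in the same library, the share of their reads that fell on RS2 does not depend on the scaling between libraries. That share was 1.31% to 2.92% in the 6 R5 libraries and 63.0% to 97.1% in the 6 V5 libraries. The lowest V5 share, in Gm20/Gm10 replicate 2, had a 95% Wilson interval of 59.5% to 66.5%, and the highest R5 share, in Gm20/Gm10 replicate 1, one of 2.31% to 3.69%. The mean was 2.16% ± 0.659 at R5 and 77.3% ± 11.5 at V5 (SD, n = 6 each), a difference of 75.1 percentage points. Each SD is taken over the libraries of all genotypes, so it is not a spread among replicates of a single condition. Without Gm20 V5 replicate 2, which had the share of 97.1%, the difference was 71.1 points, and without the similar R5 libraries it was 75.5 points. The share is of reads, not of transcripts, since the length of each transcript is not known here, and it was chosen after RS2 and RS3 had been seen to separate the sets in opposite directions, so it is given as a description with no test. Within V5 the Thorne libraries had 75.3% and 71.3%, between the 81.6% and 63.0% of Gm20/Gm10, so these groups overlapped. The Gm20 libraries had 75.3% in replicate 1, about level with the higher Thorne library, and 97.1% in replicate 2.

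**Figure D1:**
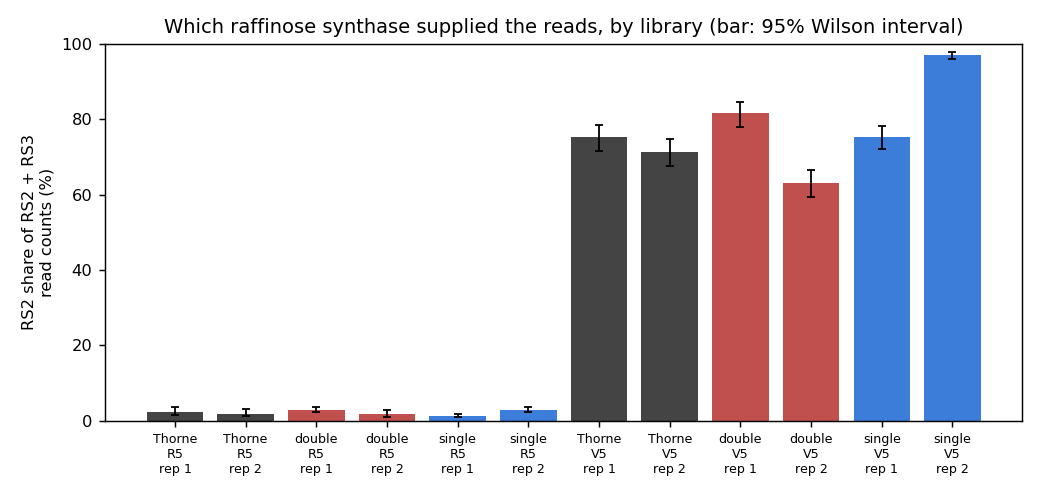
Share of the reads of RS2 and RS3 together that fell on RS2 (%), for each of the 12 libraries, coloured by genotype, with 95% Wilson intervals that cover counting error only. The 6 R5 libraries lie at 1.31% to 2.92% and the 6 V5 libraries at 63.0% to 97.1%.

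The stachyose synthase differed less between the library sets, and 1 library carried much of its range. It was at 5.45 and 4.83 CPM in Thorne, 9.80 and 4.97 CPM in Gm20/Gm10 and 11.1 and 8.17 CPM in Gm20 at R5. In the V5 set it reached 10.2 and 7.16 CPM in Thorne, 12.4 and 10.6 CPM in Gm20/Gm10 and 11.4 and 72.8 CPM in Gm20. The sets overlapped in CPM, and Gm20 V5 replicate 2 lay far above the other 11 libraries. The log2 fold change, R5 against V5, was -1.55 (SE 0.62) in Thorne, -0.99 (SE 0.61) in Gm20/Gm10 and -2.28 (SE 0.63) in Gm20, with edgeR adjusted p of 0.0794, 0.233 and 0.0199. The Gm20 value became -0.79 (edgeR adjusted p 0.132) when its V5 replicate 2 was left out. It also lost the call without either R5 library of that group (edgeR adjusted p 0.0801 and 0.109), in limma (adjusted p 0.0966), in a fit of the 4 Gm20 libraries (edgeR adjusted p 0.146) and without the similar R5 libraries (edgeR adjusted p 0.116). The gene was called in Thorne under 5 of 14 alternatives and in Gm20/Gm10 under 3 of 14, among them, for both, the fit without Gm20 V5 replicate 2 (edgeR adjusted p 0.00535 and 0.0334).

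Among the galactinol synthases, which supply the galactose donor for both later steps, Glyma.03G222000 was the one called between the sets in all 3 genotypes. At R5 it was at 2.92 and 2.65 CPM in Thorne, 7.62 and 4.23 CPM in Gm20/Gm10 and 4.51 and 6.69 CPM in Gm20. At V5 the counts were 0 and 3 in Thorne, 2 and 4 in Gm20/Gm10 and 6 and 25 in Gm20, the last of these being 1.19 CPM. All R5 libraries were above all V5 libraries, and the library with 0 counts allows up to 0.147 CPM at a floor of 3 counts. Summed over the Thorne libraries there were 175 counts at R5 and 3 at V5, a ratio per total count of 37.9 with a 95% exact Poisson interval of 12.8 to 186 for counting error only. The edgeR log2 fold change was 4.36 (SE 0.99, adjusted p 0.00973) in Thorne, 4.97 (SE 0.92, adjusted p 0.00406) in Gm20/Gm10 and 2.74 (SE 0.77, adjusted p 0.0219) in Gm20. Without the Thorne V5 replicate 1, the library with 0 counts, the Thorne value was 3.32 (edgeR adjusted p 0.053), and without the similar R5 libraries the Gm20 value was 2.29 (edgeR adjusted p 0.134). The Gm20 call also ended without its R5 replicate 2 (edgeR adjusted p 0.104), in a fit of its 4 libraries (edgeR adjusted p 0.111) and in limma (adjusted p 0.41). The handling of reads shared by gene copies is not known, so the split of counts among these related genes is uncertain.

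Glyma.20G094500 and Glyma.19G219100 lay on the same side, with values that passed the test in Gm20 and missed it in the other genotypes. Glyma.20G094500 was at 6.35 and 7.01 CPM in Thorne, 23.5 and 6.23 CPM in Gm20/Gm10 and 22.9 and 17.5 CPM in Gm20 at R5. Its V5 levels were 1.08 and 0.634 CPM in Thorne, 1.01 and 4.6 CPM in Gm20/Gm10 and 2.26 and 0.237 CPM in Gm20. Its edgeR log2 fold change, R5 against V5, was 2.17 (SE 1.09, adjusted p 0.145) in Thorne, 2.08 (SE 1.03, adjusted p 0.144) in Gm20/Gm10 and 3.54 (SE 1.11, adjusted p 0.0319) in Gm20. The Gm20 call was lost without its V5 replicate 2 (2.61, edgeR adjusted p 0.0657) and without either of its R5 libraries (edgeR adjusted p 0.0816 and 0.0827). The same was so without the similar R5 libraries (edgeR adjusted p 0.092), in a fit of the 4 Gm20 libraries (edgeR adjusted p 0.136) and in limma (adjusted p 0.42). Calls in the other genotypes appeared under 3 of 14 alternatives for Gm20/Gm10 (lowest adjusted p 0.0279, in limma) and 2 of 14 for Thorne (lowest 0.00194, edgeR on its 4 libraries alone).

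Glyma.19G219100 was at 2.04 and 6.17 CPM in Thorne, 4.96 and 2.74 CPM in Gm20/Gm10 and 9.10 and 4.75 CPM in Gm20 at R5. The V5 set had 0.784 and 1.41 CPM in Thorne, 0.338 and 1.05 CPM in Gm20/Gm10 and 0.337 and 0.237 CPM in Gm20 (5 to 29 counts). Its Thorne R5 libraries differed 3.02-fold from each other, more than the gap between the lower of them and the higher V5 library. The edgeR log2 fold change was 1.06 (SE 0.73, adjusted p 0.276) in Thorne, 2.12 (SE 0.76, adjusted p 0.0552) in Gm20/Gm10 and 4.21 (SE 0.84, adjusted p 0.00545) in Gm20. The last of these did not pass in limma with quality weights (4.19, adjusted p 0.436) or in a fit of only the 4 Gm20 libraries (4.19, edgeR adjusted p 0.0576). In Gm20/Gm10 the gene was called under 6 of 14 alternatives, with the lowest adjusted p of 0.0209 in DESeq2, and in Thorne under 0 of 14.

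The fourth galactinol synthase, Glyma.10G145300, was barely detected in either set. It had 3, 6, 10, 0, 22 and 12 counts at R5 and 1, 6, 6, 9, 5 and 17 counts at V5, with Thorne first, then Gm20/Gm10, then Gm20. The library with 0 counts, Gm20/Gm10 R5 replicate 2, allows up to 0.111 CPM at a floor of 3 counts. No difference between the sets was detectable at this depth, with edgeR log2 fold changes of -1.08 (SE 1.31), -1.50 (SE 1.21) and -0.31 (SE 1.09) and adjusted p of 0.539, 0.358 and 0.84. By the files' ID order this gene lies 108 IDs from Glyma.10G134400 of the edited pair on chromosome 10, and Glyma.20G094500 lies 93 IDs from Glyma.20G085100 on chromosome 20. Whether that nearness bears on their levels was not tested.

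MIPS1, which feeds inositol into the pathway and into phytate, had the most counts of the 8 genes in every library, a comparison not corrected for transcript length. At R5 it was at 102 and 89.6 CPM in Thorne, 461 and 126 CPM in Gm20/Gm10 and 178 and 486 CPM in Gm20. In V5 libraries the level was 1457 and 1030 CPM in Thorne, 2667 and 2138 CPM in Gm20/Gm10 and 2462 and 401 CPM in Gm20. The sets overlapped through 1 V5 library, Gm20 replicate 2, which was below the 2 highest R5 libraries. The edgeR log2 fold change, R5 against V5, was -4.49 (SE 1.16, adjusted p 0.0164) in Thorne, -3.37 (SE 1.10, adjusted p 0.04) in Gm20/Gm10 and -2.53 (SE 1.06, adjusted p 0.0832) in Gm20. Leaving out any of the 4 Thorne libraries ended the Thorne call (edgeR adjusted p 0.0517 to 0.106), and leaving out any of the 4 Gm20/Gm10 libraries ended the other (edgeR adjusted p 0.0621 to 0.178). Without its V5 replicate 2 the Gm20 value was -3.37 (edgeR adjusted p 0.0116), and DESeq2 called it with all libraries (adjusted p 0.016).

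**Figure D2:**
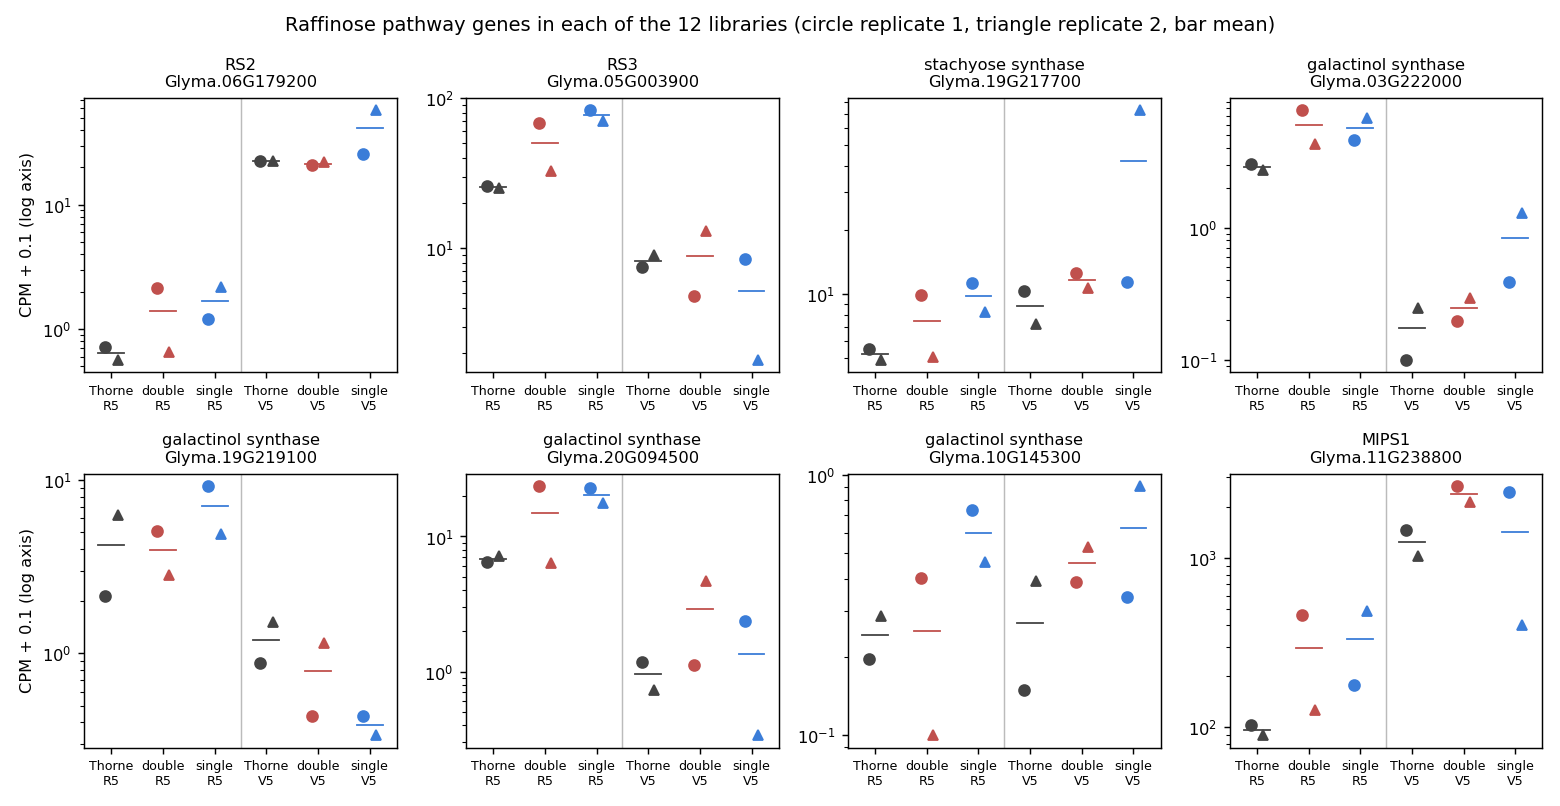
CPM + 0.1 on a log axis for the 8 genes in each library, with groups along the horizontal axis, circles for replicate 1, triangles for replicate 2 and a bar at the group mean. RS2 and MIPS1 have their higher values at V5, and RS3 and the galactinol synthases Glyma.03G222000, Glyma.19G219100 and Glyma.20G094500 have theirs at R5.

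Counted over the set, edgeR called 3 of the 8 genes between R5 and V5 in Thorne, 1 higher at R5 (Glyma.03G222000) and 2 lower (RS2 and MIPS1), beside 37.8% of all 38559 genes tested (20.9% higher and 16.9% lower). RS2, MIPS1 and Glyma.03G222000 were also the 3 called in Gm20/Gm10, beside 37.4% of all genes (21.1% higher and 16.3% lower). In Gm20 6 were called, with RS3 and 3 galactinol synthases higher at R5 and RS2 and the stachyose synthase lower, beside 41.9% of all genes (21.6% higher and 20.3% lower). The Thorne and Gm20/Gm10 counts are near the share of all genes. The median log2 fold change of the 8 genes was -0.13 in Thorne, 0.54 in Gm20/Gm10 and 1.22 in Gm20, where the medians of all genes were 0.14, 0.11 and -0.03. Without the similar R5 libraries the Gm20/Gm10 median was -0.53, and without Thorne V5 replicate 2 that of Thorne was 0.95. The change of the R5 to V5 difference from Thorne to a mutant passed for 0 of the 8 genes and for 0% of all genes with edgeR, so the genotypes were not shown to differ in it. At an unadjusted p under 0.05 it was passed by 0 of the 8 for Gm20/Gm10 (2.54% of all genes) and by 2 for Gm20 (RS3 and Glyma.19G219100, beside 6.86% of all genes), and DESeq2 and limma called 0 of the 8. Leaving out Gm20 V5 replicate 1 moved the median change of the 8 for Gm20 from 1.31 to 2.34, with a lone Gm20 library at V5.

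How often the sets overlapped depended on the scaling. In plain CPM 4 of the 8 genes had all R5 libraries above all V5 libraries (32.9% of all genes) and RS2 had all of them below (10.4% of all genes). After TMM scaling, which corrects for differences in RNA composition, 2 genes were above (RS3 and Glyma.03G222000, beside 25.3% of all genes) and 2 below (RS2 and the stachyose synthase, beside 20.7%). Use of library totals alone moved the median log2 fold change of all genes by 0.80 in Thorne, 0.37 in Gm20/Gm10 and 0.30 in Gm20, and left the sign of each member's fold change as it was in these 3 comparisons.

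**Figure D3:**
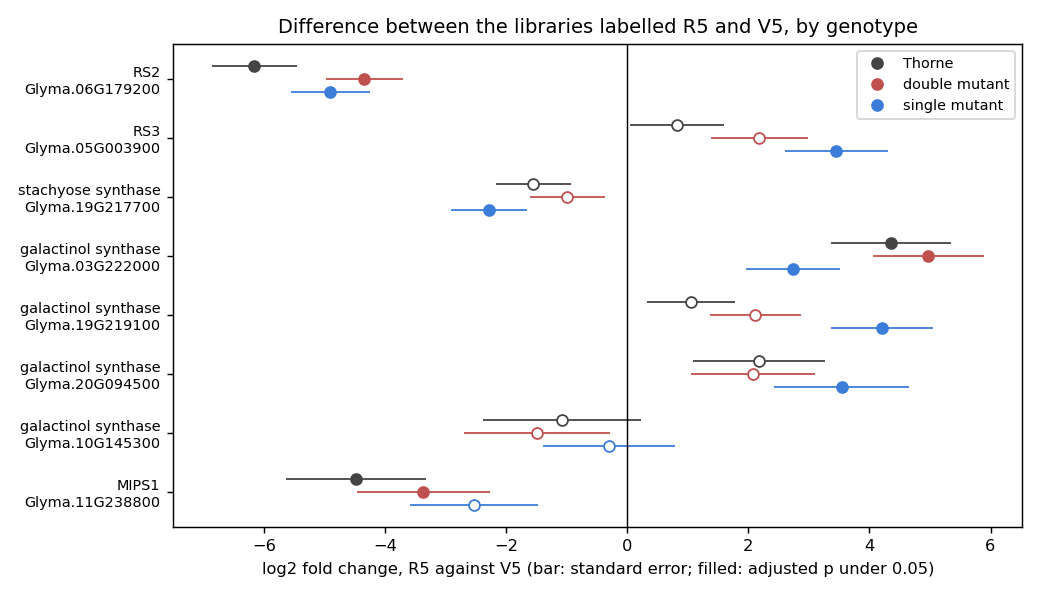
Log2 fold change between R5 and V5 for each gene in Thorne, Gm20/Gm10 (double) and Gm20 (single), with standard errors, where filled points have an edgeR adjusted p under 0.05. RS2 lies between -6.16 and -4.35 in the 3 genotypes, while RS3 and 3 galactinol synthases lie to the right of 0.

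By its design text the study set edited plants against the wild type. At R5 all 8 genes had a positive log2 fold change in Gm20/Gm10 against Thorne and all 8 in Gm20 against Thorne, where 47.7% and 50% of all genes were positive. Both comparisons use the same Thorne libraries, and with library totals alone Glyma.19G219100 turned to -0.09 in Gm20/Gm10, which left 7 of 8. In that comparison limma and the replicate block also gave 7, leaving out Thorne replicate 1 gave 6, and leaving out Gm20/Gm10 replicate 1 gave 4 of 8 with a median of 0.04. In Gm20 all 8 were positive under each of the 13 alternatives. None passed edgeR's test in either comparison, beside 0% of all 37058 genes tested. At an unadjusted p under 0.05 there were 2 of the 8 in Gm20/Gm10 (2.94% of all genes) and 4 in Gm20 (5.49% of all genes), and neither DESeq2 nor limma called any of the 8. The median of the 8 was 1.17 in Gm20/Gm10 and 1.64 in Gm20, against medians of -0.02 and 0.00 over all genes.

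For RS3 all 4 mutant libraries at R5 lay above both Thorne libraries, with 50.3 ± 25.5 CPM in Gm20/Gm10 and 76.6 ± 8.72 CPM in Gm20 against 25.4 ± 0.629 CPM in Thorne (SD, n = 2 each). The log2 difference from Thorne was 1.12 (SE 0.39) in Gm20/Gm10 and 1.65 (SE 0.39) in Gm20, with edgeR adjusted p of 0.779 and 0.585, and 0.656 and 0.0582 in DESeq2. Glyma.03G222000 and MIPS1 also had no overlap between the 4 mutant and the 2 Thorne libraries, which makes 3 of 8 genes above Thorne and 0 below, beside 7.98% and 13.2% of all genes in plain CPM and 10.1% and 10.8% after TMM scaling. The galactinol synthase averaged 5.93 ± 2.40 CPM in Gm20/Gm10, 5.60 ± 1.54 CPM in Gm20 and 2.78 ± 0.191 CPM in Thorne (SD, n = 2 each). MIPS1 averaged 293 ± 237 CPM, 332 ± 218 CPM and 96.0 ± 9.07 CPM in the same order (SD, n = 2 each), or 1.76 (SE 0.81) and 1.90 (SE 0.81) above Thorne on the log2 scale with edgeR adjusted p of 0.779 and 0.585.

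The 2 similar R5 libraries, 1 in each mutant group, held much of the Gm20/Gm10 difference from Thorne and less of that of Gm20. Both were above the other 4 R5 libraries for RS2, Glyma.03G222000 and MIPS1, that is for 3 of 8 genes where 18.7% of all genes showed it. MIPS1 was at 461 and 486 CPM in them and at 89.6 to 178 CPM in the others. The Rubisco small subunit gene Glyma.13G046200 moved with these values, at 6193 and 6043 CPM in these libraries and 963 to 1849 CPM in the other 4, and the vegetative storage protein gene Glyma.08G200100 was at 392 and 343 CPM against 2063 to 3640 CPM. The 4 leaf and vegetative genes together summed to 18920 and 17700 CPM in these libraries and to 19530 to 35230 CPM in the others. The part of the leaf genes in the result was not tested. With both libraries left out, 5 of 8 genes stayed positive in Gm20/Gm10 with a median of 0.04, and MIPS1 was at 0.44 (SE 0.21). In Gm20 8 of 8 stayed positive with a median of 1.10, RS3 was at 1.67 (SE 0.16, edgeR adjusted p 0.21) and Glyma.20G094500 at 1.75 (SE 0.20, edgeR adjusted p 0.291). Each mutant is then a lone library, which is assumed to vary like the wild-type pair.

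**Figure D4:**
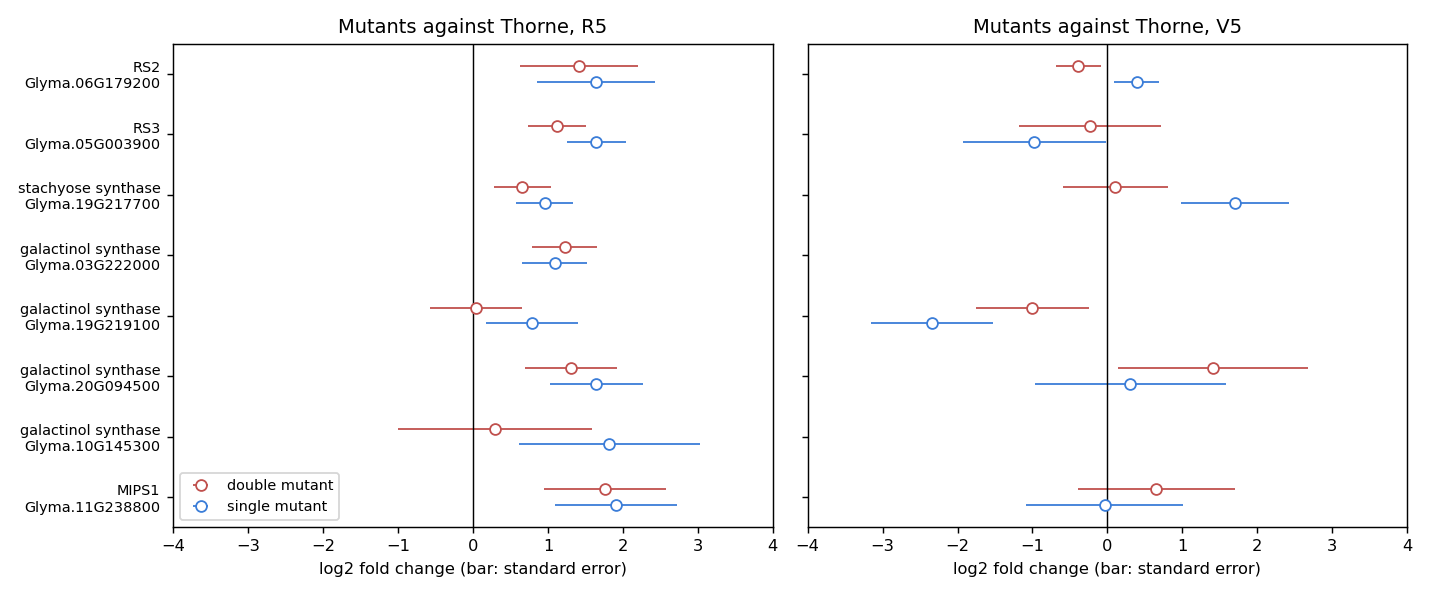
Log2 fold change of Gm20/Gm10 (double) and Gm20 (single) against Thorne at R5 (left) and V5 (right), with standard errors, and open points since 0 of the 8 genes had an edgeR adjusted p under 0.05. Every R5 point lies above 0, at V5 the points lie on both sides, and the 2 genes below the count filter at V5 have no point there.

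At V5 the members did not share a direction. The low counts of Glyma.03G222000 and Glyma.10G145300 kept them out of the V5 tests, and of the other 6 genes 3 were positive and 3 negative in each mutant against Thorne, with medians of -0.06 in Gm20/Gm10 and 0.14 in Gm20. With library totals alone 4 of 6 were positive in each, where that scaling moved the median of all genes by 0.31 and 0.44. The Gm20 median turned to -0.76 in limma, -0.18 with the replicate block, -0.05 without Thorne V5 replicate 2 and -2.42 without Gm20 V5 replicate 1. EdgeR called 0 of the 6 in each comparison, beside 0% of all 33599 genes tested, with 0 and 1 of them at an unadjusted p under 0.05 (1.54% and 6.02% of all genes), and DESeq2 and limma called 0 of the 6. RS2 in plain CPM was at 22.3 ± 0.0845 in Thorne and at 21.3 ± 0.844 in Gm20/Gm10 (SD, n = 2 each). After TMM scaling its log2 fold change was -0.39 (SE 0.30, edgeR adjusted p 1). MIPS1 in Gm20/Gm10 was above both Thorne libraries in plain CPM, at 2400 ± 374 against 1240 ± 302 (SD, n = 2 each). Part of that gap goes with the scaling, and the log2 fold change of MIPS1 after TMM scaling was 0.65 (SE 1.05, edgeR adjusted p 1). Its standard error was 0.20 without Gm20 V5 replicate 2, and the edgeR adjusted p was then 0.183. The stachyose synthase was the only member with all 4 mutant libraries above both Thorne libraries in plain CPM at V5, which 29.2% of all genes did, and 0 members had all 4 below, as 1.97% of all genes did. After TMM scaling 0 members lay wholly above or below Thorne, beside 7.96% and 8.59% of all genes.

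Gm20 V5 replicate 2 was at an end of the V5 range for all 8 genes. It was the highest of the 6 for RS2, the stachyose synthase, Glyma.03G222000 and Glyma.10G145300, and the lowest for RS3, Glyma.19G219100, Glyma.20G094500 and MIPS1. Over all genes tested at V5 it was the highest for 54.4% and the lowest for 26.4%, so a place at an end was common for this library. Set against the median V5 library, the stachyose synthase was 6.62 times as high in it, RS2 2.57 times, RS3 0.217 times and MIPS1 0.223 times. The seed gene list was lowest in it and the leaf list highest (366 CPM against 115 to 217 CPM). That sum was carried by the Rubisco genes Glyma.13G046200 (218 CPM) and Glyma.19G046800 (147 CPM), while the vegetative storage protein genes Glyma.07G014500 and Glyma.08G200100 were at 0.665 and 0.237 CPM. The markers' part in these values was not tested. With Gm20 replicate 1 left out in its place, so that this library alone stood for the group, edgeR called 5 of these 6 genes against Thorne, among them the stachyose synthase (2.37, SE 0.17, adjusted p 5.87e-05) and MIPS1 (-2.33, SE 0.26, adjusted p 0.000343). That fit called 60% of all 35927 genes tested. With Gm20 replicate 2 left out edgeR called 0 of the 6, and the same values were 0.20 and 0.81. The Gm20 result at V5 thus turned on which of its libraries was used, and each lone library is assumed to vary like the other groups.

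**Figure D5:**
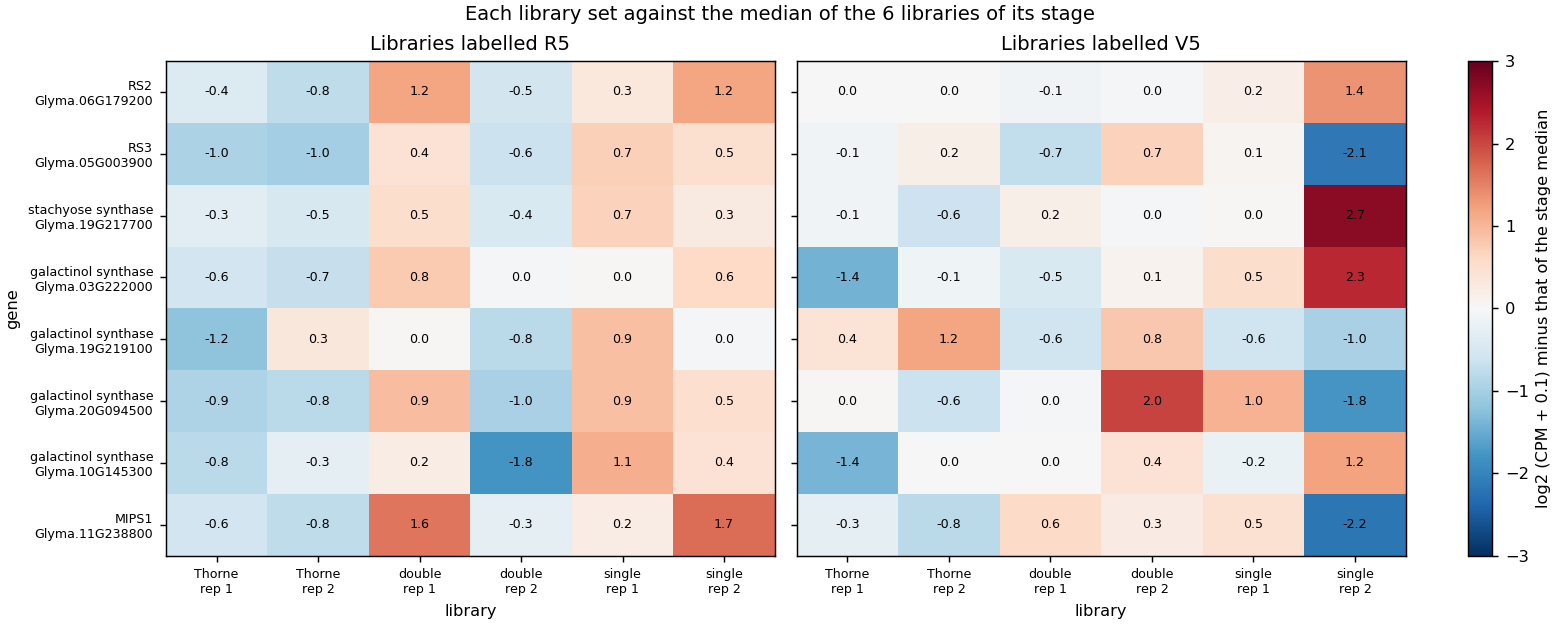
Each library's log2 (CPM + 0.1) minus that of the median of its stage's 6 libraries, for the 8 genes, R5 on the left and V5 on the right, with red above and blue below the median. Gm20 V5 replicate 2 ranges from -2.2 for MIPS1 to 2.7 for the stachyose synthase, and at R5 MIPS1 is highest in Gm20/Gm10 replicate 1 and Gm20 replicate 2.

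The mutants were also set against each other, and the directions turned with single libraries. At R5 Gm20/Gm10 was below Gm20 for 7 of the 8 genes with a median log2 fold change of -0.32, where 50.3% of all genes were positive. Without Gm20/Gm10 replicate 2 the members turned to 5 of 8 positive (median 0.25), without its replicate 1 to 0 of 8 (-1.39) and without the similar R5 libraries to 0 of 8 (-1.18). EdgeR called 0 of them beside 0% of all genes, with 0 at an unadjusted p under 0.05 (0.267% of all genes), and DESeq2 and limma called 0. At V5 Gm20/Gm10 was above for 4 of 6 genes with a median of 0.72, where 49.3% of all genes were positive. Without Gm20 replicate 2 this turned to 2 of 6 (median -0.08) and without Gm20/Gm10 replicate 2 to 2 of 6 (-0.25). The median was 2.33 without Gm20 replicate 1. EdgeR on all 6 libraries called 0, as did DESeq2 and limma. RS2 alone was at an unadjusted p under 0.05 (log2 fold change -0.78, SE 0.30, edgeR adjusted p 0.67), beside 4.02% of all genes, and without Gm20 replicate 2 it was at -0.39 (edgeR adjusted p 0.505).

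For each member the gene with the most similar profile was looked up among 18348 IDs with a mean of at least 10 CPM. Likeness was the Pearson r of log2(CPM + 1) over the 12 libraries. That r takes in both the gap between R5 and V5 and the spread within each set. For the genes so picked, r was 0.865 to 0.991 within R5 and 0.646 to 0.997 within V5. The nearest to RS2 was Glyma.03G005200 (r = 0.995), at 0.162 to 1.15 CPM at R5 and 52.5 to 211 CPM at V5, and the nearest to MIPS1 was Glyma.19G192800 (r = 0.995). The nearest to RS3 was Glyma.07G024000 (r = 0.97), and the nearest to Glyma.03G222000 was Glyma.18G150000 (r = 0.994). The sources used here give no name for these IDs. The other 4 members had a nearest r of 0.86 to 0.992.

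A further 6 IDs had been listed as possible relatives of the pathway, and no role is given for them since no annotation used here names them. In Thorne edgeR called 2 of them higher at R5 and 2 lower, with 2 not called, beside 20.9% and 16.9% of all genes. The counts were the same in Gm20/Gm10, beside 21.1% and 16.3% of all genes. In Gm20 edgeR called 3 higher and 2 lower, with 1 not called, beside 21.6% and 20.3% of all genes. The 3 with the most counts are given by the edgeR log2 fold change in Thorne. They were Glyma.05G180600 (4.92, SE 0.95, adjusted p 0.00499), Glyma.08G138200 (10.78, SE 0.87, adjusted p 0.000152) and Glyma.18G018600 (0.31, SE 0.72, adjusted p 0.76). Glyma.08G138200 had 0 to 2 counts in the V5 libraries, so the size of its fold change is uncertain. Glyma.18G018600 was at 1.35 (SE 0.73, edgeR adjusted p 0.174) in Gm20/Gm10 and was called in Gm20 (2.51, SE 0.76, edgeR adjusted p 0.0276).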

How the data were processed

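Total RNA of 12 libraries in 6 groups was sequenced. The authors deposited whole-number counts of reads for 56044 gene IDs. HISAT2, Bowtie and HTSeq are named per the submitters' processing notes, without roles. For the genome build, annotation, strand setting and multiply matching reads, nothing is stated in the labels, so counts of near-identical copies are uncertain. Tests used edgeR 4.0.16 in R 4.3.3 (quasi-likelihood test, TMM, filterByExpr with minimum count 10 and minimum total 15, Benjamini-Hochberg over all genes tested, threshold 0.05). Fits within a stage used its 6 libraries (3 residual degrees of freedom) and fits across stages all 12 (6 residual degrees of freedom). Each SE was derived from the log2 fold change and its F statistic. CPM uses plain library totals. Intervals and floors reflect counting error alone, because PCR copies could not be told from molecules.

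The alternatives were RLE factors, DESeq2 1.42.0, limma 3.58.1 with quality weights, no filter, a replicate block, other sets of libraries in the fit, and each library left out. Library totals alone, the similar R5 libraries left out, a crossed block and the RS2 share were added after the data were seen. The fits were also run on simulated data with planted changes, only as a check of the code. No power or rate of false calls is taken from that run. Members and lists were chosen with earlier results of these data known. Beyond the 8 members, the genes named were the 6 further IDs, the nearest profiles and the marker genes. No ID matched the RefSeq table (0 of 56044, against 59048 genes), so lists by product stayed empty and no sequence is shown.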

Additional observations from a re-analysis of the deposited data

How the results depend on the processing

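Across the alternatives no value turned against a call, and RS2 kept its R5 to V5 call in every one. The number of the 8 genes called between R5 and V5 in Thorne was 3, 6 in a fit of its 4 libraries alone and 1 to 4 when single libraries were left out. All genes called numbered 25310 in limma, 23306 in the fit of 4 libraries and 7016 to 21813 with a library left out. In Gm20/Gm10 the 3 called became 5 with library totals, in DESeq2 and in the fit of 4 libraries, 7 in limma, and 2 to 7 with a library left out, beside 6611 to 21648 genes, or 7523 without the similar R5 libraries. In Gm20 the 6 called became 1 in limma (2810 genes), 1 in the fit of 4 libraries (1040 genes), 2 without the similar R5 libraries (7577 genes) and 3 to 6 with a library left out (8692 to 23468 genes). Between genotypes, where edgeR called 0 genes, DESeq2 called 58 and 73 at R5 for Gm20/Gm10 and Gm20 against Thorne, 11 and 167 at V5, 113 between the mutants at V5, and 16 and 134 for the change between stages, none of them a member. With a library left out, Gm20 against Thorne at V5 gave 0 to 6 members and 0 to 21539 genes, the mutants against each other at V5 0 to 6 members and 0 to 22196 genes, and the change of the Gm20 difference 0 to 2 members and 0 to 9713 genes. The highest of these ranges came without Gm20 V5 replicate 1, where a count of 6 includes a gene that only then passed the filter. The replicate numbers did not pair the libraries (r = -0.674 to 0.212 at R5, 0.0218 to 0.032 at V5). The replicate block left the members called at 3, 3 and 6, with 12762, 12656 and 13995 genes, and a crossed block at R5 called 48 and 8 genes and 0 members. For the Gm20/Gm10 counts given above, the main fit with 3 members called 14421 genes in all. The genes called numbered 14075 with library totals, 17212 in DESeq2, 18645 in the fit of 4 libraries and 21386 in limma. The rise in members called thus came with more genes called, except with library totals. The cause of these differences was not tested. At most 22 counts per library limit what Glyma.10G145300 can show.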
